A study of Caenorhabditis elegans with 12 samples.

Results

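Meiotic chromosomes in *C. elegans* germ cells pair, are built around a protein axis and are then zipped together by the synaptonemal complex, a ladder-like structure whose central part is made of SYP proteins. The axis carries cohesin, which holds sister chromatids together, and HORMA-domain proteins, onto which the central part assembles. Programmed DNA breaks made on this scaffold are repaired as crossovers, which allow homologs to separate. In the adult hermaphrodite these steps take place in the syncytial germline, where oocytes form.

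The mRNA of 10 genes of this machinery was examined, out of 46653 gene identifiers in the deposited count table. They comprised *syp-1* (F26D2.2), *syp-2* (C24G6.1) and *syp-3* (F39H2.4) for the central part of the synaptonemal complex, *him-3* (ZK381.1), *htp-1* (F41H10.10) and *htp-3* (F57C9.5) for the HORMA axis, *rec-8* (W02A2.6) for meiotic cohesin, *spo-11* (T05E11.4) for break formation, *msh-5* (F09E8.3) for crossovers, and the regulatory kinase gene *chk-2* (Y60A3A.12). All 10 passed the filter on low counts, as did 16741 genes in all.

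Populations of whole hermaphrodites grown at 20 °C were collected on the first day of adulthood, before embryos could be seen, and 3 populations were sequenced for each of 4 genotypes. WT was the N2 strain. The *rde-4* group carried *rde-4(ne301)*, a null allele of the gene for a protein that binds double-stranded RNA and works with Dicer, the *age-1* group carried *age-1(hx546)*, an allele that moderately reduces insulin/IGF-1 signaling (IIS) through the PI3 kinase AGE-1, and the double mutant *age-1; rde-4* carried both. The mutants had been outcrossed to N2. The libraries held 74501098 to 82446102 counts. As CPM, counts scaled to library size, the *rde-4* transcript averaged 180 in WT, 30.7 in *rde-4* mutants, 145 in *age-1* and 28.1 in *age-1; rde-4*, so that the level followed the labels. All 32 genes of a germ cell list, all 24 of an oocyte list and all 30 of a sperm list had counts in every library.

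The 10 genes lie on 3 chromosomes (WBcel235 assembly). On chromosome V are *syp-1* (16404274 to 16407701, plus strand), *syp-2* (5536487 to 5537717, plus strand) and *chk-2* (19908086 to 19916023, minus strand). Chromosome I carries *syp-3* (8663045 to 8664445, minus strand) and *htp-3* (4827072 to 4829791, plus strand). The other 5 are on chromosome IV, namely *him-3* (6977508 to 6978765, plus strand), *htp-1* (5390189 to 5391557, minus strand), *spo-11* (11123133 to 11124862, minus strand), *rec-8* (13349122 to 13353193, minus strand) and *msh-5* (13155233 to 13164054, plus strand). All are protein-coding, with annotated exons that add up to 934 bases for *syp-3* and to 4216 bases for *msh-5*. The longest overlap with another gene is that of *syp-1*, which shares 517 exonic bases (16.9% of its exons) on the same strand with F13A7.14, so part of its count may belong to that gene. For *syp-3*, 61 exonic bases are shared on the opposite strand with *mrt-1*, and *him-3*, *spo-11* and *chk-2* share 24 bases or fewer with opposite-strand neighbours. The libraries kept strand information, but whether counting used it is not given in the sources used here. *htp-1* has a closely similar paralog, *htp-2*, and reads could be divided between them in either direction.

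Per kilobase of exon, transcript levels differed widely among the genes, with a pair of axis genes at the top and the kinase gene at the bottom. Averaged over the 12 libraries, *him-3* was at 174 ± 22.5 CPM per kilobase (SD, n = 12) and *htp-1* at 135 ± 17.1 CPM per kilobase (SD, n = 12). They were followed by *syp-3* at 77.2, *syp-2* at 76.1, *spo-11* at 60.2 and *rec-8* at 36.1 CPM per kilobase. At the lower end stood *htp-3* at 22.04, *syp-1* at 21.4, *msh-5* at 20.9 and *chk-2* at 13.1 CPM per kilobase. *syp-3* was above *syp-2* in 7 of 12 libraries, *htp-3* above *syp-1* in 7 and *syp-1* above *msh-5* in 7, so the order within these neighbours was not resolved. Every other neighbouring pair kept its order in 12 of 12 libraries. Among all genes that passed the filter, the 10 stood between the 63.2nd percentile (*chk-2*) and the 95.8th percentile (*him-3*) of CPM per kilobase.

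**Figure D1:**
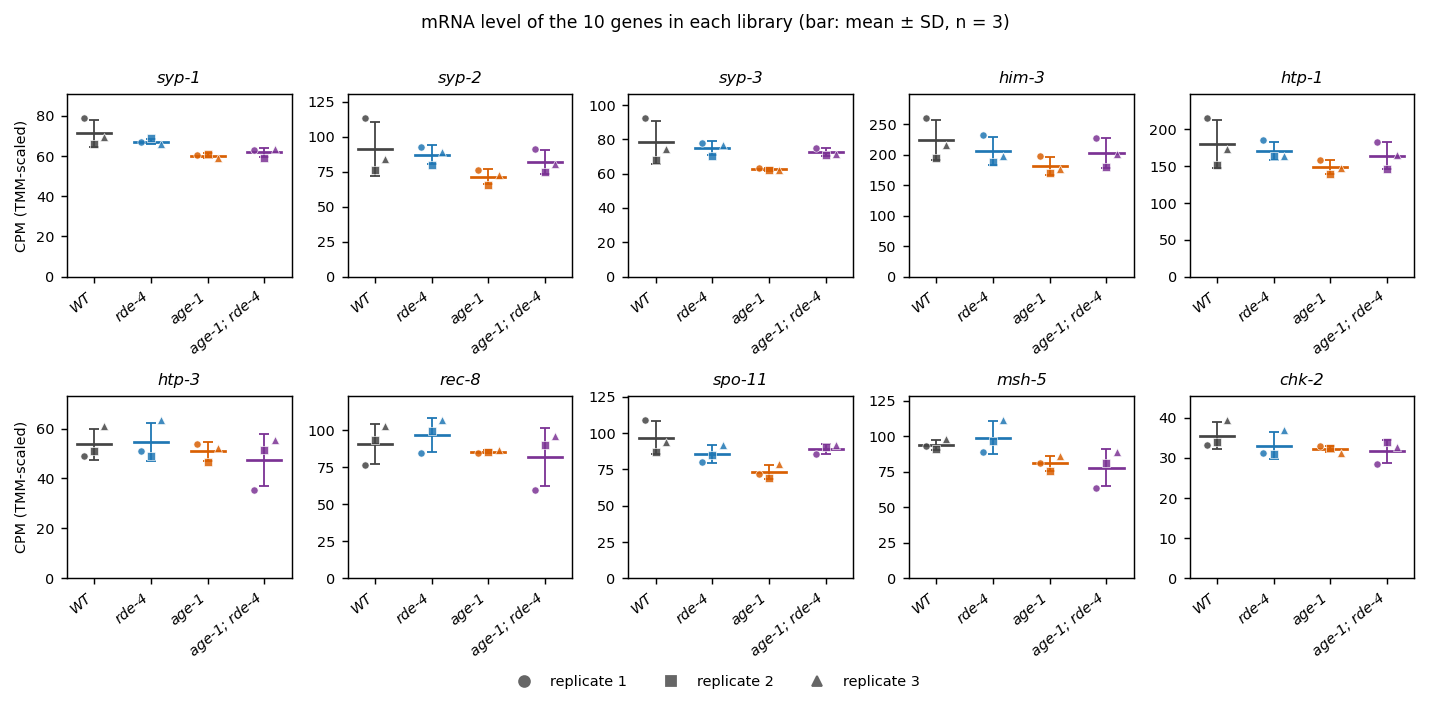
TMM-scaled CPM (vertical axis, from 0) of the 10 genes in each of the 12 libraries, grouped by genotype, with a symbol for each replicate, a line at the group mean and whiskers of 1 SD (n = 3). For *spo-11* the 3 *age-1* libraries (69.0 to 78.5 CPM) lie below all 3 WT libraries (87.0 to 109 CPM), and *rec-8* and *htp-3* are lowest in *age-1; rde-4* replicate 1.

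The spread was small beside the median over all genes that passed the filter. Genes of a similar level were not compared separately. Each gene's highest library was 1.34 times (*syp-1*) to 1.79 times (*htp-3* and *rec-8*) its lowest. The median coefficient of variation of the 10 genes was 13.3% in WT, 8.91% in *rde-4*, 6.37% in *age-1* and 10.8% in *age-1; rde-4*, while over all genes that passed the filter it was 20.2%, 16.96%, 12.7% and 21.1%. The lowest count of any of the genes in a library was 2311, that of *chk-2*. Counting noise alone, at each gene's lowest count, would give 0.870% (*him-3*) to 2.08% (*chk-2*), below each of these medians. The lowest single value, 1.25% for *syp-3* in *age-1*, was no larger than its counting noise (1.44%).

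The comparison of *age-1* with WT addresses what moderately reduced IIS does to these transcripts. *spo-11*, which encodes the topoisomerase-like enzyme that makes the meiotic breaks, was at 109, 87.0 and 94.0 CPM in WT replicates 1 to 3 and at 71.9, 69.0 and 78.5 CPM in *age-1*. The groups did not overlap, and *spo-11* fell by 0.40 on the log2 scale, a change of −24.4% (SE 0.11 log2 units, 95% interval −0.63 to −0.18, adjusted p = 0.0267 by edgeR's quasi-likelihood test). It was the only one of the 10 genes to pass an adjusted p of 0.05, which 14.8% of all genes tested passed (12.2% higher and 2.58% lower).

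The call for *spo-11* rested on single libraries. It was lost without WT replicate 1 (log2 fold change −0.28, adjusted p = 0.114), WT replicate 3 (−0.43, adjusted p = 0.085), *age-1* replicate 1 (−0.39, adjusted p = 0.0735) or *age-1* replicate 2 (−0.36, adjusted p = 0.12). Of 22 alternative settings, all gave a lower level in *age-1* and 13 kept the call, with log2 fold changes from −0.48 to −0.26 and adjusted p from 0.00854 to 0.51. These included removals of single *rde-4* or *age-1; rde-4* libraries, which are in neither group, and each of those removals kept the call.

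The 3 SYP genes pointed the same way without passing the adjusted threshold. *syp-1* was at 78.95, 66.0 and 69.5 CPM in WT against 60.8, 60.9 and 58.9 CPM in the mutant, a log2 difference of −0.25 (SE 0.09, adjusted p = 0.0842 by edgeR). *syp-3* was at 92.4, 68.2 and 74.5 CPM in WT against 63.4, 62.2 and 62.0 CPM in the mutant, a log2 difference of −0.32 (SE 0.11, adjusted p = 0.0664 by edgeR). For *syp-2*, the values were 113, 76.5 and 84.3 CPM in WT and 76.1, 65.9 and 72.7 CPM in the mutant, a log2 difference of −0.35 (SE 0.14, adjusted p = 0.106 by edgeR). In all 3 genes each *age-1* library was below each WT library, and WT replicate 1 was the highest of the 12 libraries. Without WT replicate 1 the log2 fold changes were −0.15 for *syp-1*, −0.14 for *syp-2* and −0.17 for *syp-3*. Without WT replicate 2, by contrast, all 3 passed the threshold (adjusted p of 0.0499, 0.0473 and 0.0287). That fit called 2933 of all 17118 genes higher and 1254 lower, against 2046 and 432 of 16741 with all libraries.

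Among the axis genes, *him-3*, whose product is needed for synapsis and crossing over, was at 260.5, 196 and 216 CPM in WT and at 199, 170.0 and 176 CPM in *age-1*. Its groups overlapped and the difference missed the threshold (log2 fold change −0.30, interval −0.59 to −0.02, adjusted p = 0.128). *htp-1*, which guards sister chromatid cohesion until the first division, had a log2 fold change of −0.28 (interval −0.56 to 0.01, adjusted p = 0.163). *htp-3*, the HORMA protein on which the others load, was at 49.01 to 60.9 CPM in WT and at 46.7 to 52.3 CPM in *age-1*, and the cohesin gene *rec-8* was at 76.6 to 103 CPM and 84.8 to 87.1 CPM. For both the difference was near 0, with intervals of −0.43 to 0.28 for *htp-3* and −0.45 to 0.27 for *rec-8*. The crossover gene *msh-5*, a MutS homolog, gave −0.22 (interval −0.49 to 0.06), and *chk-2*, which licenses pairing and break formation, −0.14 (interval −0.40 to 0.12), each with all 3 *age-1* libraries below all 3 WT libraries.

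All 10 genes had a negative log2 fold change in *age-1*, from −0.40 to −0.08. Their median was −0.26, beside 0.03 over all genes tested, and 5 of 10 had an unadjusted p under 0.05, as did 33.2% of all genes. The groups did not overlap for 6 of 10, all lower in *age-1*, while 17.8% of all genes were lower and 23.7% higher without overlap. The median of the 10 was −0.16 without WT replicate 1 and was below 0 in each of 23 settings, from −0.35 to −0.08, the scaling of libraries to germ cell genes included (−0.12, where the median of all genes was 0.18). In populations of whole worms, fewer germ cells and less RNA per germ cell cannot be told apart.

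Some markers of other tissues and of germ cell stages moved with this comparison. The summed level of the 32 germ cell genes was 6864 to 7935 CPM in WT and 6123 to 6736 CPM in *age-1*, and that of the 24 oocyte genes was 9521 to 11770 CPM against 8890 to 9339 CPM. The 30 sperm genes summed to 92.9 to 217 CPM in WT and 355 to 463 CPM in *age-1*, with 21 of 30 higher by the same test and a median log2 fold change of 1.75. The 6 muscle genes summed to 622 to 1301 CPM and 1493 to 1794 CPM, and 159 *col* collagen genes, of which some had no counts in some libraries, to 12940 to 20070 CPM and 23640 to 26210 CPM. Of these *col* genes 115 passed the filter. Among 7 intestine genes 1 was higher and 1 lower, with a median log2 fold change of −0.09. Among 7 neuron genes 1 was higher and 0 lower, with a median of 0.36. The 8 early zygotic genes, some without counts in some libraries, summed to 3.55 to 6.16 CPM in WT and 0.721 to 2.14 CPM in *age-1*. Of these, 6 were tested and 0 called, with a median log2 fold change of −1.45. In *age-1; rde-4* replicates 1 to 3 they summed to 1.56, 11.9 and 8.95 CPM. With libraries scaled to the germ cell genes *spo-11* was at −0.26 (adjusted p = 0.362), and with the collagen level as a covariate at −0.26 (adjusted p = 0.51). The covariate fit called only 14 genes higher and 8 lower of all tested, against 2046 and 432 without it. The part of the sperm, oocyte, early zygotic, muscle, intestine and neuron lists in the result was not tested.

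**Figure D2:**
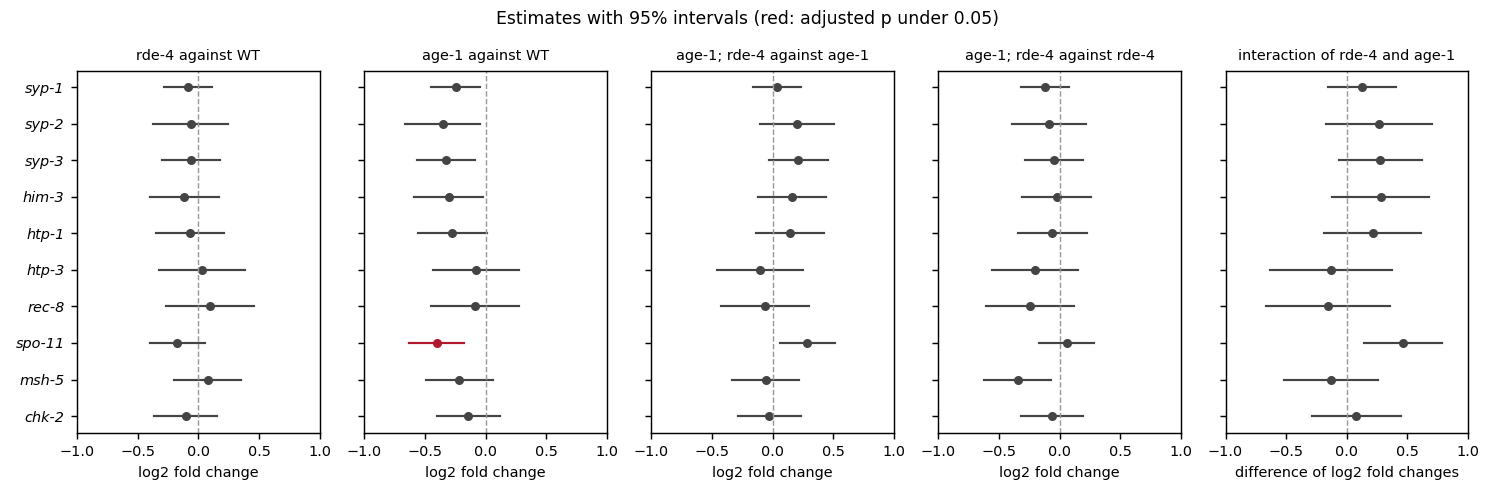
Estimated log2 fold change (horizontal axis; points) with its 95% interval (lines) for each of the 10 genes in 4 comparisons of genotypes and, at the right, for the interaction of the mutations, with red marking an adjusted p under 0.05. *spo-11* in *age-1* against WT, at −0.40, is the only red entry.

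Loss of RDE-4 in an otherwise WT background was the second comparison. None of the 10 genes was called by edgeR, none had an unadjusted p under 0.05 (14.4% of all genes) and DESeq2 called 0, while 4.49% of all genes were called by edgeR. The groups overlapped for every gene, while 8.49% of all genes were higher and 7.81% lower without overlap. Log2 fold changes ran from −0.18 for *spo-11* to 0.09 for *rec-8*, with a median of −0.07 beside −0.02 over all genes, and that median was positive in some settings, among them the removal of WT replicate 1 (0.03) and of the length trend described below (0.05). The intervals of the 10 genes lay within −0.40 and 0.46, so that a change past 1.37-fold upward or past 0.756 of the WT level downward was outside all of them. *spo-11* was at 80.2, 84.8 and 92.1 CPM in *rde-4*, between the WT and *age-1* means.

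Loss of RDE-4 in the *age-1* background also left all 10 genes uncalled by edgeR and by DESeq2, in a comparison where edgeR called 0.424% of all genes (0.317% higher and 0.108% lower). *spo-11* was at 85.6, 90.2 and 91.9 CPM in *age-1; rde-4*, each above all 3 *age-1* libraries and within the WT range or just below it. Its log2 fold change was 0.29 (SE 0.11, interval 0.06 to 0.51), with an unadjusted p of 0.0177 and an adjusted p of 0.327 by edgeR, the only one of the 10 with an unadjusted p under 0.05, which 11% of all genes had. *syp-3* was at 75.03, 70.8 and 71.6 CPM, also above all *age-1* libraries (log2 fold change 0.21, interval −0.03 to 0.45, adjusted p = 0.521). These 2 of 10 were the genes without overlap, both higher, while 9.36% of all genes were higher and 12.4% lower without overlap. The median over the 10 genes was 0.09, beside −0.06 over all genes.

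Whether the effect of *rde-4* differed between the backgrounds was tested by the interaction, the log2 change from RDE-4 loss in *age-1* minus that in WT. None of the 10 genes was called by edgeR or DESeq2 (0.113% of all genes by edgeR, 0.0538% above 0 and 0.0597% below), and 1 had an unadjusted p under 0.05, as did 12% of all genes. That gene was *spo-11*, at 0.46 (SE 0.15, interval 0.14 to 0.78, unadjusted p of 0.00866 and adjusted p of 0.288 by edgeR). Its sign was positive in all settings, with 0.36 without WT replicate 1 and 0.57 without WT replicate 2. The intervals of the other 9 genes included 0. This comparison shares the *age-1* and WT libraries with those above.

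In the double mutant relative to WT, all 10 genes again had log2 fold changes below 0, from −0.27 to −0.11, and none was called by edgeR (12.1% of all genes, 8.95% higher and 3.17% lower) or DESeq2. The median was −0.15 beside −0.02 over all genes, but it became 0.13 with libraries scaled to the germ cell list, under which the median of all genes was 0.25. It was −0.03 without WT replicate 1 and −0.01 with the length trend removed. *syp-1* was at 62.8, 59.1 and 63.5 CPM, each below all 3 WT libraries, with a log2 fold change of −0.21 and the only unadjusted p under 0.05 (0.0409, with an adjusted p of 0.167 by edgeR), a threshold that 26.5% of all genes passed. That value was −0.08 without WT replicate 1, 0.01 with the length trend removed and 0.08 with germ cell scaling. *msh-5* was at 63.65, 81.5 and 88.7 CPM, likewise without overlap (−0.27, adjusted p = 0.196). Genes without overlap made up 2 of 10, both lower, against 11.9% of all genes lower.

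Against *rde-4*, the double mutant again gave 0 called genes of the 10 by edgeR (1.59% of all genes, 1.34% higher and 0.245% lower) and by DESeq2. *msh-5* was at 88.96, 96.7 and 112 CPM in *rde-4* and below that in all 3 double mutant libraries, at −0.35 on the log2 scale (SE 0.13, adjusted p = 0.233 by edgeR), the only one of the 10 with an unadjusted p under 0.05 (0.0181), which 14% of all genes had. Its estimate was −0.22 without *age-1; rde-4* replicate 1, −0.13 with the length trend removed and −0.02 with scaling to the germ cell list. *syp-1* was the other gene without overlap, with a log2 fold change of −0.12 (adjusted p = 0.603), and 9.64% of all genes were lower without overlap. The median over the 10 genes was −0.07, and it was 0.28 under germ cell scaling, where that of all genes was 0.36.

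The 10 transcripts did not vary as a block between replicates. The ratio of *syp-2* to *rec-8* counts was 1.48 in WT replicate 1 and 0.82 in each of WT replicates 2 and 3. In *age-1; rde-4* it was 1.53 in replicate 1 against 0.83 and 0.84, in *rde-4* 1.10 against 0.80 and 0.83, and in *age-1* 0.90 against 0.77 and 0.83. The ratio of *him-3* to *rec-8* counts did the same, at 3.40 in WT replicate 1 and 3.796 in *age-1; rde-4* replicate 1, and between 1.86 and 2.74 in the other libraries. Replicate 1 thus had the highest ratio in each genotype, and the labels do not say what libraries of the same number share.

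Levels were compared by exon length. In the 5 genes with exons under 1500 bases (*syp-2*, *syp-3*, *him-3*, *htp-1* and *spo-11*), the mean log2 level relative to each gene's mean over the 12 libraries was 0.39 in WT replicate 1, against 0.03 in the 5 genes over 2000 bases (*syp-1*, *htp-3*, *rec-8*, *msh-5* and *chk-2*). *syp-1*, at 3053 bases, was at 0.28 there, nearer to the shorter genes. In *age-1; rde-4* replicate 1 the means were 0.11 and −0.36. In the other 10 libraries the difference, short minus long, was between −0.17 and 0.13. The same libraries showed a length trend over 6198 protein-coding genes with a mean log2 CPM above 4. There the median relative level of genes under 1000 bases minus that of genes over 5000 bases was 0.51 in WT replicate 1, 0.67 in *age-1; rde-4* replicate 1, 0.22 in *rde-4* replicate 1 and between −0.23 and −0.04 in the remaining 9.

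**Figure D3:**
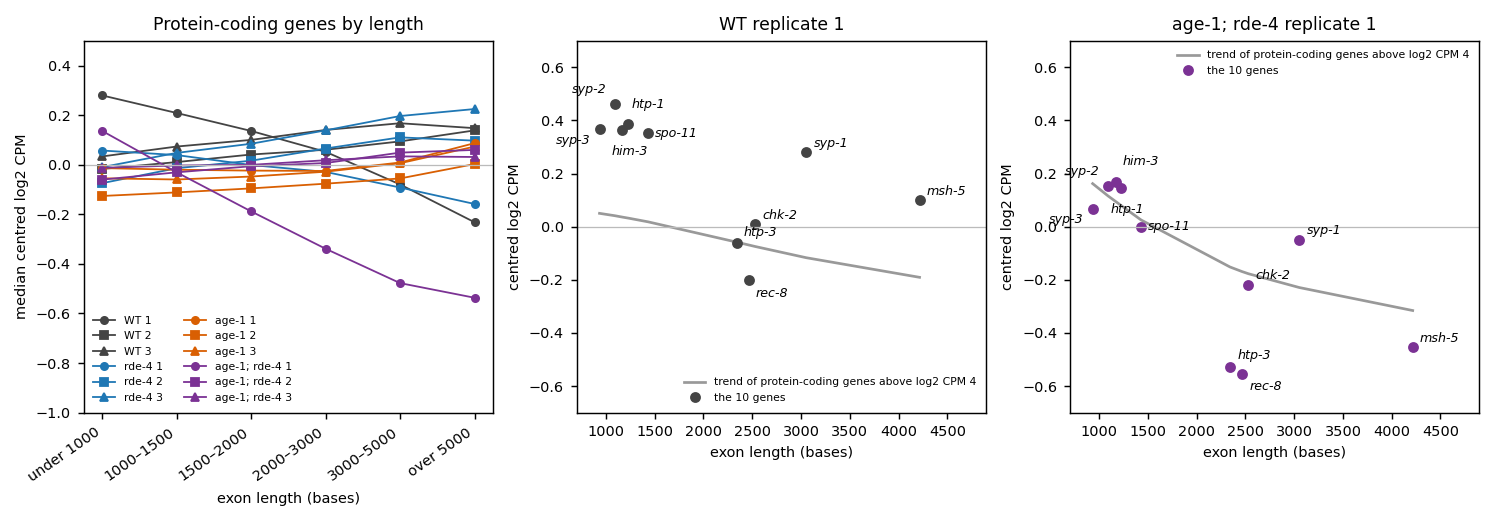
Left, median log2 CPM relative to each gene's mean over the 12 libraries (vertical axis) by exon length in bases (horizontal axis) for protein-coding genes with a mean log2 CPM above 4, with 1 line per library. Middle and right, the same quantity for each of the 10 genes in WT replicate 1 and *age-1; rde-4* replicate 1, with the smoothed trend of those protein-coding genes, centred on its median, in grey: *syp-2* is at 0.46 and *rec-8* at −0.20 in the first, and at 0.15 and −0.56 in the second.

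The trend taken off was centred on its median in each library, so a shift shared by genes of all lengths stayed in. In WT replicate 1 the median relative level was 0.21 for protein-coding genes of 1000 to 1500 bases and 0.05 for those of 2000 to 3000 bases. When the centred trend was taken off in that library, *syp-2* went from 0.46 to 0.42, *htp-1* from 0.39 to 0.35 and *spo-11* from 0.35 to 0.33. There *rec-8* went from −0.20 to −0.13, and *syp-1* from 0.28 up to 0.40. The part of the shared shift in these values was not tested. In *age-1; rde-4* replicate 1, *rec-8* went from −0.56 to −0.39, *htp-3* from −0.53 to −0.38 and *syp-2* from 0.15 to 0.04. With the trend removed from all libraries, 2 of the 10 genes were called in *age-1* against WT, *spo-11* (log2 fold change −0.39, adjusted p = 0.028) and *syp-3* (−0.30, adjusted p = 0.0484). That fit called 2318 of all 16741 genes higher and 393 lower. The lists of germ cell and oocyte genes, at mean relative log2 levels of −0.57 and −0.57, were also lowest in *age-1; rde-4* replicate 1, and the part of either in these values was not tested.

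The wider meiotic program, 78 genes in 6 lists, gave the setting for these values. In *age-1* against WT the median log2 fold change was −0.28 for 10 other synapsis genes, −0.14 for 12 other axis and cohesin genes, −0.21 for 10 pairing and nuclear envelope genes, −0.25 for 11 break genes, −0.23 for 26 strand exchange and crossover genes and −0.30 for 9 DNA damage checkpoint genes. Of the 78, 5 were lower by edgeR and 0 higher, where 2.58% and 12.2% of all genes were, and 32 had an unadjusted p under 0.05, as did 33.2% of all genes. DESeq2 called 8 lower. The count of 5 depended on single libraries, with 0 called without WT replicate 1, WT replicate 3 or any single *age-1* library, 25 without WT replicate 2, 9 without *age-1; rde-4* replicate 1 and 3 or 4 without any other library. Lower calls over all genes moved as well, from 432 with all libraries to 40 without WT replicate 1 and 46 without WT replicate 3. They were 28 to 147 without any single *age-1* library, 1254 without WT replicate 2 and 668 without *age-1; rde-4* replicate 1. The count among the 78 was also 0 with libraries scaled to germ cell genes, where 2 of 78 had an unadjusted p under 0.05, 0 with the collagen covariate, where 0 had one, and 2 with the length trend removed. Over all genes 62, 8 and 393 were lower under these settings. Lists of 32 germ cell genes, 24 oocyte genes and 16 replication and cell cycle genes had medians of −0.14, −0.17 and −0.22.

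**Figure D4:**
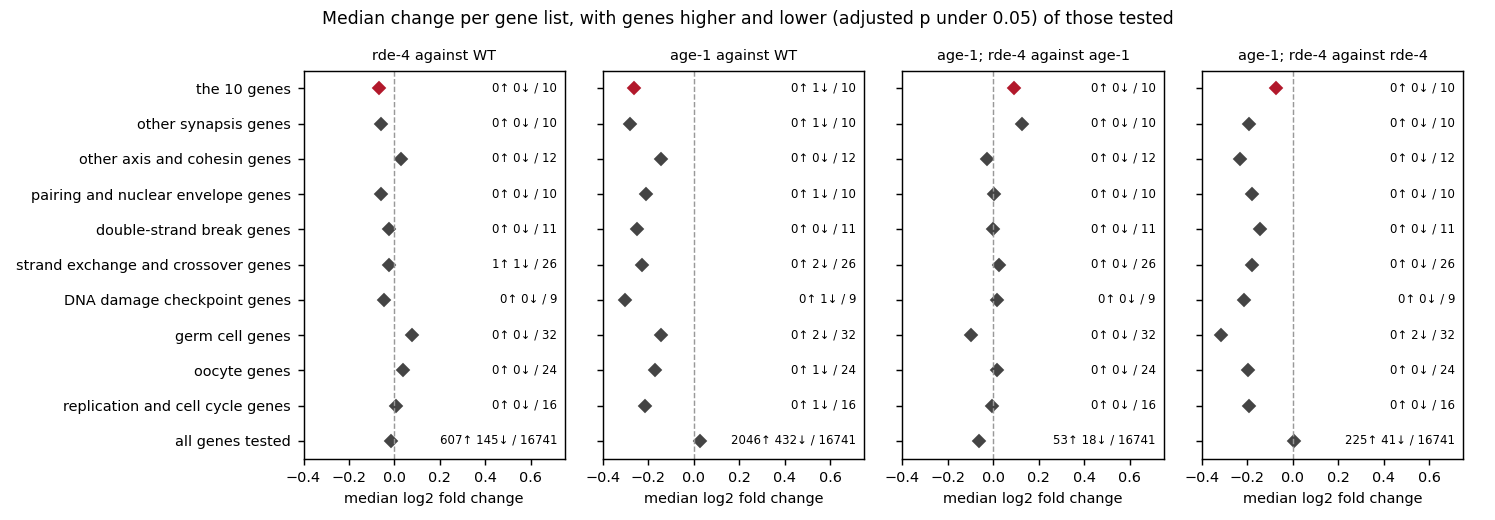
Median log2 fold change (horizontal axis; diamonds) of the 10 genes (red), of 6 other meiosis lists, of germ cell, oocyte and replication lists and of all genes tested, in 4 comparisons; figures at the right of each panel give genes higher and lower at an adjusted p under 0.05 out of those tested. In *age-1* against WT all of these lists have medians between −0.30 and −0.14, and all genes tested have 0.03.

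The 5 called genes came from 4 of the lists. *pch-2*, encoding the AAA+ ATPase that remodels HORMA proteins, fell by 0.40 on the log2 scale (118 to 135 CPM in WT, 90.9 to 101 CPM in *age-1*, adjusted p = 0.0264), and *exo-1*, an exonuclease gene, fell by 0.43 (88.0 to 119.2 CPM, then 72.8 to 80.0 CPM, adjusted p = 0.0237). *smc-5*, which encodes an SMC protein of DNA repair, fell by 0.35 (adjusted p = 0.0302). *zim-3*, a pairing center protein gene, fell by 0.58 (adjusted p = 0.0481) and *mrt-2*, a checkpoint clamp subunit gene, by 0.38 (adjusted p = 0.045). *pch-2* kept its call in 14 of 22 alternative settings, *exo-1* and *smc-5* in 12 each, and *zim-3* and *mrt-2* in 5 each. The settings included removals of single *rde-4* or *age-1; rde-4* libraries, in neither group. In each of those *pch-2*, *exo-1* and *smc-5* kept their calls. For *pch-2*, *exo-1* and *smc-5* the call was lost without WT replicate 1, without WT replicate 3 and without any single *age-1* library, with adjusted p from 0.0519 to 0.128. For *zim-3* and *mrt-2* it was lost in 10 of 12 removals of a library, with adjusted p of up to 0.22.

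Close partners of the 10 genes also gave values below 0 without passing the threshold. In *age-1* against WT the log2 fold change was −0.28 for *htp-2*, the paralog of *htp-1*, −0.18 for *syp-4*, −0.28 for *syp-5* and −0.28 for *syp-6*, which encode other SYP proteins, and −0.26 for *coh-3* and −0.22 for *coh-4*, kleisins that act beside REC-8. It was −0.31 for *dsb-1* and −0.26 for *dsb-2*, cofactors of break formation, −0.29 for *him-14*, which encodes the partner of MSH-5, −0.37 for *zhp-3* and −0.20 for *cosa-1*, genes of crossover sites, and −0.35 for *rad-51*, the recombinase gene. The axis-associated gene *lab-1* was at −0.12, the nuclear envelope gene *sun-1* at −0.26, the polo-like kinase gene *plk-2* at −0.10 and *him-8*, needed for X chromosome pairing, at −0.45. The smallest adjusted p among these 16 genes was 0.057, that of *dsb-1*.

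In the comparison of *rde-4* with WT, 1 gene of the 78 was lower and 1 higher by edgeR (0.866% and 3.63% of all genes), both from the strand exchange and crossover list. *brc-2* (T07E3.5, chromosome III, 6900568 to 6903106), the worm BRCA2 homolog that loads RAD-51, was at 78.2, 58.9 and 68.2 CPM in WT and only at 37.0, 37.7 and 40.65 CPM without RDE-4. It was at 60.2, 60.2 and 61.7 CPM in *age-1* and at 27.4, 43.0 and 41.2 CPM in *age-1; rde-4*. The 6 libraries without RDE-4 were thus all below the 6 with it. *brc-2* fell by 0.83 on the log2 scale in *rde-4* (SE 0.16, adjusted p = 0.0112) and by 0.88 in *age-1; rde-4* relative to WT (SE 0.16, adjusted p = 0.00404). Relative to *age-1*, the double mutant was at −0.71 (adjusted p = 0.079), and the interaction was 0.13 (SE 0.22, adjusted p = 0.881).

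The *brc-2* call in *rde-4* was kept in 20 of 22 alternative settings and lost without *rde-4* replicate 2 (−0.82, adjusted p = 0.0587) and with the collagen covariate (−0.66, adjusted p = 0.109). Removals of single *age-1* or *age-1; rde-4* libraries, which are in neither group, were among the settings that kept it. The *brc-2* call in the double mutant relative to WT was kept in 22 of 22, which include removals of single *rde-4* or *age-1* libraries. *brc-2* shares 38 exonic bases with T07E3.4 on the opposite strand. It lies on the same chromosome as *rde-4* (10217302 to 10218646), so that loss of RDE-4 and alleles linked to *rde-4* in the 2 strains that carry *ne301* cannot be told apart.

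*rip-1* (R01H10.5, chromosome III, 10257173 to 10258741), whose product acts with a RAD-51 paralog, was at 0.909, 0.919 and 1.09 CPM in WT and at 1.90, 2.90 and 2.82 CPM in *rde-4*. It rose by 1.38 on the log2 scale in *rde-4* (SE 0.33, adjusted p = 0.035 by edgeR). In *age-1; rde-4* it was at 0.810, 1.18 and 1.68 CPM, overlapping both WT and *age-1* and below all 3 *rde-4* libraries. Relative to *rde-4*, the double mutant was at −1.05 on the log2 scale (unadjusted p of 0.00751 and adjusted p of 0.158 by edgeR). The interaction was −1.05 (adjusted p = 0.404 by edgeR). The call in *rde-4* against WT was kept in 11 of 22 alternative settings. It was lost without any single WT or *rde-4* library or without *age-1; rde-4* replicate 2, with adjusted p from 0.0504 to 0.141. *rip-1* lies nearer to *rde-4* (10217302 to 10218646) than *brc-2* does. For the rise of *rip-1* in *rde-4* too, loss of RDE-4 and alleles linked to *rde-4* cannot be told apart. Why *rip-1* was lower in the double mutant, which carries the same *rde-4* allele, was not tested. *rip-1* shares 49 exonic bases with R01H10.4 on the opposite strand. Beyond *brc-2*, the double mutant had 1 further gene of the 78 called relative to WT, *smc-5*, which fell by 0.31 (adjusted p = 0.047) and kept its call in 2 of 22 settings. Relative to *age-1* and to *rde-4*, the double mutant had 0 of 78 called by edgeR, 3 and 14 with an unadjusted p under 0.05 (11% and 14% of all genes), and 1 each by DESeq2. The interaction had 0 of 78 by edgeR and by DESeq2, and 4 with an unadjusted p under 0.05 (12% of all genes).

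**Figure D5:**
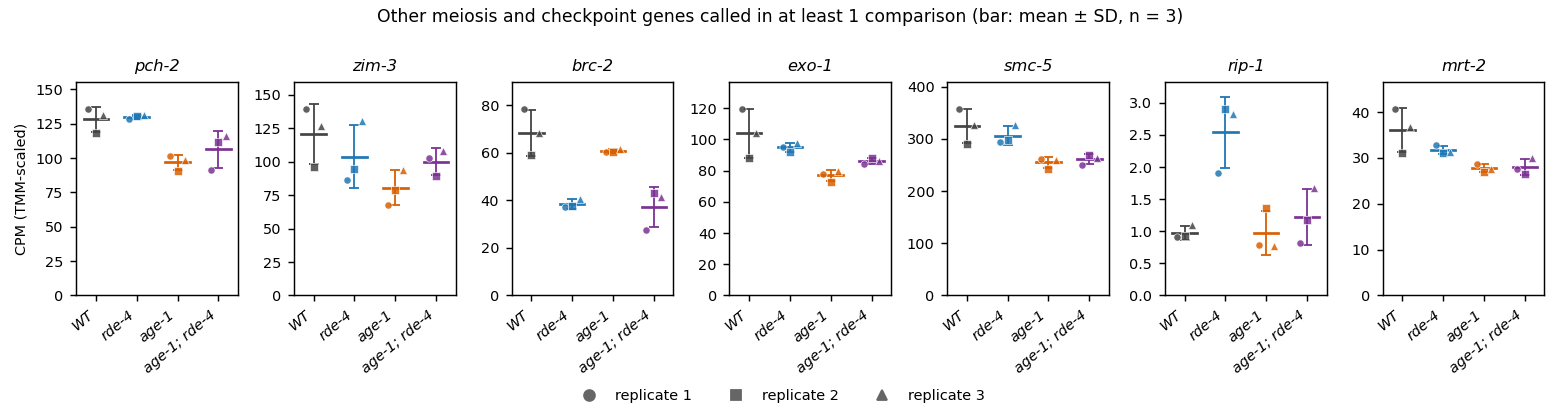
TMM-scaled CPM (vertical axes, from 0) in each library of the 7 other meiosis and checkpoint genes called in at least 1 comparison, with a line at the group mean and whiskers of 1 SD (n = 3). *brc-2* is at 27.4 to 43.0 CPM in the 6 libraries that carry *rde-4(ne301)* and at 58.9 to 78.2 CPM in the other 6.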

How the data were processed

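mRNA of 12 whole-worm populations, 3 per genotype, was sequenced from ribosome-depleted, strand-specific libraries. Per the labels, the authors used HISAT2 2.0.5, StringTie and the WBcel235 genome. The deposited values are whole-number read counts per gene, without normalization, and intervals cover counting and replicate error only as far as these 3 populations show it. Of the identifiers, 45305 matched a locus tag of the annotation, 876 a transcript and 472 neither.

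Counts were analysed with edgeR 4.0.16 in R 4.3.3. Genes were kept by filterByExpr (16741), TMM gave the library scaling, and all 12 libraries entered 1 quasi-likelihood fit with genotype as the factor (glmQLFit and glmQLFTest, two-sided), with Benjamini-Hochberg adjustment over all genes tested and a threshold of 0.05. A gene counted as called if its adjusted p was under that threshold. Relative log2 levels used a prior count of 2. Exon length was the union of annotated exons.

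The 10 genes and all lists were chosen with earlier results of these data known. Text names were all 10, 16 fixed partner genes and, per list, up to 4 called genes with the smallest adjusted p. *F13A7.14*, *T07E3.4* and other overlapping neighbours were named from the annotation, and the germ cell genes of the closing section after their values were seen. Pairs of replicate libraries gave a chi-square per gene from 35.8 to 252, against about 1 for sampling noise alone, and no library was treated as a copy of another. Alternatives were RLE size factors, other low-count filters, DESeq2 1.42.0, a replicate block, fits of only the groups compared, scaling to germ cell genes, a collagen covariate and leaving out each library. Removal of the length trend (loess on log2 exon length) and leaving out both libraries with the steepest trend were added after seeing the data. The test was tested on simulated data. No sequences are shown.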

Additional observations from a re-analysis of the deposited data

How the results depend on the processing

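In *rde-4* against WT, in the 3 comparisons of the double mutant and in the interaction, the count of called genes among the 10 was 0 in every setting run. In *age-1* against WT it was 1 with RLE size factors, with the stricter filter and with DESeq2. It was 0 with low counts left unfiltered, when only the 2 groups were fitted, with scaling to germ cell genes, with the collagen covariate and with both steep-trend libraries left out, and 2 with the length trend removed. Leaving out 1 library gave 0 to 4, where 28 to 1254 of all genes were lower. With the replicate block it was 6 (*syp-1*, *syp-2*, *syp-3*, *him-3*, *htp-1* and *spo-11*). The block fit called 2989 of all genes higher and 1605 lower, against 2046 and 432 without the block. Replicate numbers were not taken as pairs, since 1 of the 3 same-number correlations between *age-1* and WT was 0.09, under 0.1, although all 6 of these libraries correlated best with their own number. The cause of these differences was not tested, except that the fits without a library or of 2 groups hold fewer samples and the unfiltered fit more genes.

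Germ cell scaling moved the median of all genes from 0.03 to 0.18 in *age-1* against WT and from −0.02 to 0.25 in the double mutant against WT, and the share of calls that were higher from 82.6% to 93.6% and from 73.9% to 95.7%. Against *age-1* and *rde-4*, that share in the double mutant went from 74.6% to 90.6% and from 84.6% to 96.5%. With the length trend removed it was 88.985% in the double mutant against WT and 87.6% against *age-1*, and in the interaction, with 19 calls, it moved from 47.4% to 58.3% by germ cell scaling. Where 1 of the 10 genes was called in a setting, its fold change had the same sign as in the report.

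With 3 populations per genotype, differences inside the intervals given could not be resolved. The lowest count of any of the 10 genes in a library was 2311.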

Other observations

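A few germline genes outside meiosis were also called. The *age-1* fit gave 1 of 16 replication and cell cycle genes, 1 of 24 oocyte genes and 2 of 32 germ cell genes lower, and 0 higher. Over all genes 2.58% were lower and 12.2% higher. In *age-1* against WT, *rnr-2*, which encodes the small subunit of ribonucleotide reductase, fell by 0.48 on the log2 scale (576 against 805 CPM, SE 0.12, adjusted p = 0.0255 by edgeR), *nos-2*, a Nanos homolog gene, by 0.46 (101 against 138.5 CPM, adjusted p = 0.0223), and *puf-8*, a Pumilio-family gene, by 0.34 (155 against 196 CPM, adjusted p = 0.0462). *nos-2* shares 154 exonic bases with the opposite-strand gene *him-14*. Whether these calls depended on single libraries was not tested.

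In the double mutant, 3 of 32 germ cell genes were lower than in WT, as were 3.17% of all genes. The Argonaute gene *csr-1* fell by 0.46 (464 against 638 CPM, adjusted p = 0.0106 by edgeR), the RNA-dependent RNA polymerase gene *ego-1* by 0.35 (287 against 366 CPM, adjusted p = 0.0343) and the helicase gene *drh-3* by 0.35 (210 against 267 CPM, adjusted p = 0.0378). *ego-1* was also lower in *age-1* against WT (−0.33, adjusted p = 0.0422). The germ cell list was lowest in *age-1; rde-4* replicate 1, at a mean relative log2 level of −0.57, and the part of that library in these 3 calls was not tested.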
